A study of Mus musculus with 6 samples.

Results

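The 53 genes described here encode the proteins that mark and license replication origins, unwind and copy DNA at the fork, and rebuild chromatin behind it. They were chosen by name as genes of this machinery, and all 53 were among the 24346 genes in the kidney expression tables. Whole-kidney messenger RNA came from mice that had undergone unilateral nephrectomy (UNX), the removal of 1 kidney, after which the kidney left in place enlarges. The D-serine group (3 libraries) drank water with 0.1% D-serine and the vehicle group (3 libraries) drank water without it. Both groups received a serine-free diet for 1 week before the operation and were killed 2 days after it. The labels give no strain, age or sex. They also leave unsaid whether the libraries of a group are separate mice, and the p-values below then cover only variation among these samples, which may be technical. Sham-operated mice were not analysed here.

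Replication begins when the origin recognition complex and its partners CDC6 and CDT1 load the ring-shaped MCM helicase onto DNA in G1, while geminin holds CDT1 back once S phase has started. A kinase made of CDC7 and DBF4 then helps CDC45 and the GINS complex join the helicase, and primase, the replicative polymerases, the sliding clamp PCNA and its loader copy both strands. Chromatin assembly factors lay histones on the new DNA, and UHRF1 with DNMT1 copies its methylation marks. Most tubule cells of the adult kidney are at rest, and many of these genes are low there until cells enter the cycle. Because the tissue is a mixture, more cells in S phase and more RNA per cell cannot be told apart.

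Levels are FPKM, fragments scaled to transcript length and to the total of mapped fragments, which allows genes of different length to be compared. The spacing of the lowest values gave rough totals of 7218000 to 7673000 fragments per library with D-serine and about 7751000 to 8591000 with vehicle. Limma tested log2(FPKM + 1) over the 11737 genes that averaged 1 FPKM or more, and every log2 difference below is D-serine minus vehicle on that scale, which understates low genes. Of the 53 members 43 reached that mean. Asf1b, Chaf1b, Uhrf1 and Mcm3 averaged under 1 FPKM with vehicle and reached it through their D-serine libraries, so the tested members are a selected set.

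In the D-serine kidneys most of these messages stood above their vehicle level, by modest amounts and unevenly between libraries. The mean was higher with D-serine for 48 of 53 members and lower for 5, and 37 of the 43 tested members had a log2 difference above 0, against 48.9% of all tested genes. Members with every D-serine library above every vehicle library numbered 1 of 9 in origin licensing and 1 of 7 in the MCM family. They numbered 2 of 8 in helicase activation, 4 of 9 in primase and polymerases and 4 of 11 in the clamp role. They were 3 of 5 in chromatin assembly and 1 of 4 in S-phase control, the last of the 7 roles. The share was 14.5% over all genes with a value above 0. The 5 tested origin recognition subunits had log2 differences from -0.17 to 0.15. Chaf1b, Asf1b and Gins2 had the largest ratios among tested members, at 3.24, 3.09 and 2.90 times the vehicle mean. No member passed limma at a Benjamini-Hochberg adjusted p of 0.05 over all genes, where 0.00852% of tested genes passed as higher and 0.0682% as lower. The lowest adjusted p of a member was 0.085, for Asf1b. At an unadjusted p of 0.05, 14 of the 43 tested members were higher and 0 lower, beside 13.1% and 14.6% of all tested genes.

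In 14 of the 43 tested members every D-serine library lay above every vehicle library, against 16.5% of all tested genes, and in 1 member, Orc3, every D-serine library lay below, against 19.4%. Over all 53 members the counts were 16 and 1, where 14.5% and 13.9% of the genes with any value above 0 did so. The median log2 difference was 0.28 over the tested members and -0.0078 over all tested genes. Without D-serine replicate 1 this median was 0.14, and 14 members lay above all vehicle libraries, where 21.7% of all tested genes then did so. With 3 libraries against 3, the smallest two-sided p of an exact permutation test on 1 gene is 0.1, and such tests were left out.

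**Figure D1:**
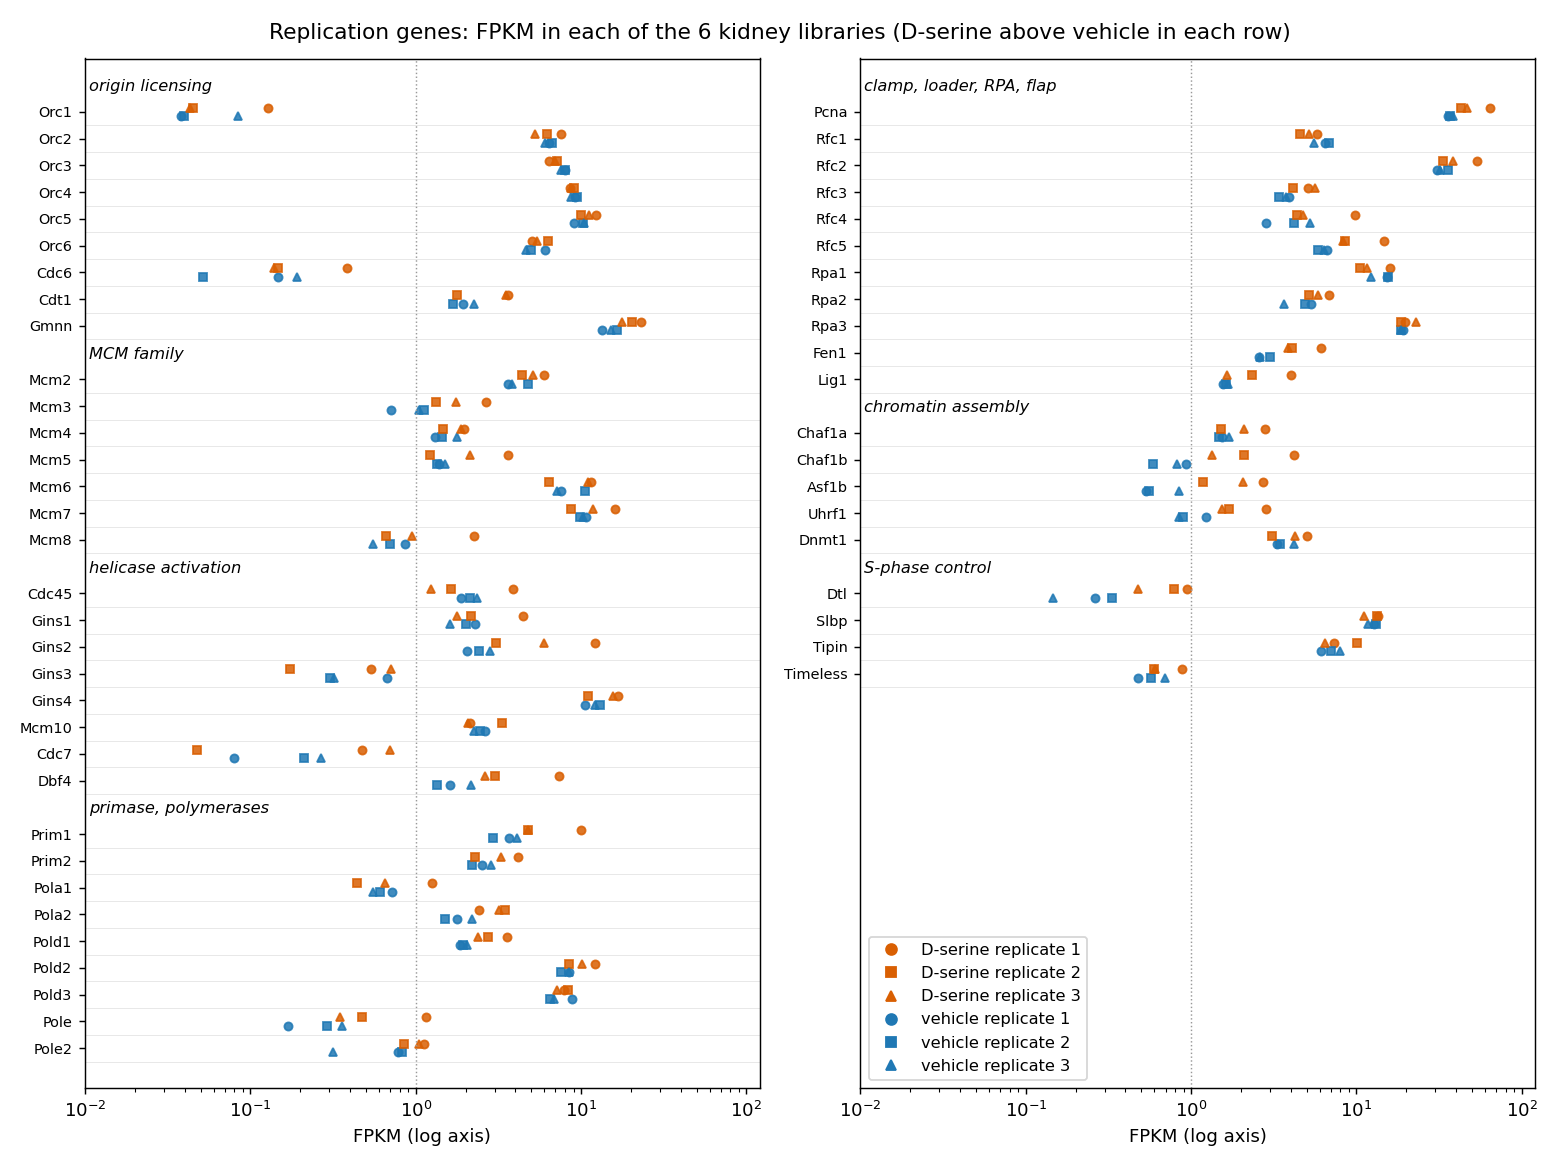
FPKM of all 53 members on a log axis, by role, with D-serine libraries (orange) above vehicle libraries (blue) in each row and 1 symbol per replicate; the dotted line is 1 FPKM. D-serine replicate 1 (orange circles) held the highest of the 6 values in 41 members.

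D-serine replicate 1 stood apart for these genes. It held the highest of the 6 values in 41 of 53 members, against 16.6% of all tested genes, and D-serine replicates 2 and 3 did so in 4 members each. The members summed to 448, 314 and 341 FPKM in D-serine replicates 1 to 3 and to 288, 299.9 and 292 FPKM in vehicle replicates 1 to 3. Each D-serine library was therefore above each vehicle library in this sum, by a narrow margin in replicate 2. Among tested members, 36, 19 and 29 of 43 lay above all vehicle libraries in D-serine replicates 1, 2 and 3, and 3, 9 and 8 lay below all of them. For all tested genes the shares above were 34.4, 37.5 and 30.5%, and the shares below were 34.4, 41.2 and 33.5%. The median coefficient of variation of tested members was 23.9% with D-serine and 10.6% with vehicle, against 13.7% and 9.61% over all tested genes.

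The 15 mitotic markers, such as Mki67, Cdk1 and Birc5, were highest in the same library. Their summed level was 402, 135 and 115 FPKM in D-serine replicates 1 to 3, against 22.4, 28.2 and 35.1 FPKM in vehicle replicates 1 to 3. In every D-serine library 15 of 15 lay above all vehicle libraries, as 14.5% of all genes with a value above 0 did. The 14 tested ones had a median log2 difference of 1.96, with 0 passing limma over all genes (lowest adjusted p = 0.057). At an unadjusted limma p under 0.05 all 14 were higher, beside 13.1% of all tested genes. Aurkb, Bub1b and Cenpf averaged 0.513, 0.547 and 0.300 FPKM with vehicle and were tested only because of their D-serine libraries. The median and the count of 14 are thus fixed in part by the minimum level. Whether the replication and mitotic lists differ from each other was not tested.

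Markers of other cell types also differed in level between the groups, though 0 of them passed limma over all genes, and their part in these results was not tested. Summed markers of the proximal tubule S3 segment were 472 to 756 FPKM with D-serine and 1054 to 1309 FPKM with vehicle, with 8 of 8 lower. Those of collecting duct principal cells were 684 to 1027 FPKM with D-serine and 465 to 621 FPKM with vehicle, with 8 of 8 higher. Those of collecting duct intercalated cells were 373.5, 369.9 and 286 FPKM in D-serine replicates 1 to 3 and 244 to 291 FPKM with vehicle, with 8 of 8 higher. D-serine replicate 1 was the highest of its group for that list. For the S3 and principal cell lists it was at neither end of the D-serine libraries. The 7 tubular injury markers summed to 687 to 959.6 FPKM with D-serine and 514 to 606 FPKM with vehicle. Most of that sum was Spp1, with means of 529 and 350 FPKM with D-serine and vehicle, and Clu, with 306 and 221 FPKM. The mean was higher with D-serine for 5 of the 7 and lower for 2. Those 2 were Havcr1, at 0.145 against 0.329 FPKM, and Sox9, at 0.217 against 0.218 FPKM. The 10 macrophage and monocyte markers summed to 13.5 to 23.8 FPKM with D-serine and 11.9 to 20.4 FPKM with vehicle. The 11 markers of T, NK and B lymphocytes, whose dividing forms express replication genes too, summed to 0.978 to 2.31 FPKM with D-serine and 1.495 to 1.64 FPKM with vehicle, and Cd3e and Ms4a1 were listed at 0 in all 6 libraries.

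The promoters of the members were searched for letters that their choice by name did not use. Transcription factors of the E2F family switch on many replication genes at the start of S phase, and the windows below are shown because they hold E2F-type letters in members whose values are given in full. RefSeq windows of 250 bases before to 50 bases after a start site (GRCm38.p6, the assembly called mm10) were found for 44 of the 53 members. The letters TTTCCCGC, TTTCGCGC, TTTGCCGC and TTTGGCGC were searched on both strands, and forms on opposite strands can overlap. At least 1 match stood in a window of 19 of the 44 members (43.2%), against 2.6% of 27025 genes. Counted per window the shares were 33.9% and 2.26%. The windows of members were richer in G and C, with a median of 62.3% against 52.7% of all windows. The CCAAT box stood in 57.1% of member windows and 37.4% of all windows, and TTTGAA, the cell cycle homology letters of many mitotic genes, in 17.9% of both. A match is a description of the letters and not a bound site.

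The windows of Uhrf1, Mcm3, Pold1, Orc3, Cdt1 and Mcm5 follow, 5′ to 3′ along the gene's strand, with E2F-type matches in capitals; a match on the opposite strand appears as its reverse complement.
Uhrf1 (chr17:56304063-56304362, plus strand): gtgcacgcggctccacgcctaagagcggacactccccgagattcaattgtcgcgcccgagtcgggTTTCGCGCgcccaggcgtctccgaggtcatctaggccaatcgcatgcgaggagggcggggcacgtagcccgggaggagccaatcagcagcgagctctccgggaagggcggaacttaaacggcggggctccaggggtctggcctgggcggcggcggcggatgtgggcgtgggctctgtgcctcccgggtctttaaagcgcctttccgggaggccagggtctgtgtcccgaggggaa
Mcm3 (chr1:20820263-20820562, minus strand): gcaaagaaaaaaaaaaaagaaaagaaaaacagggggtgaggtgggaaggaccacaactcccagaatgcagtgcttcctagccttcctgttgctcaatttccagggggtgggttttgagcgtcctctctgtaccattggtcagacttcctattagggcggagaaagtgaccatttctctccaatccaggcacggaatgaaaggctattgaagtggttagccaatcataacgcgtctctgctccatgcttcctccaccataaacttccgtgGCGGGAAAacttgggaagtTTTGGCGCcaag
Pold1 (chr7:44548766-44549065, minus strand): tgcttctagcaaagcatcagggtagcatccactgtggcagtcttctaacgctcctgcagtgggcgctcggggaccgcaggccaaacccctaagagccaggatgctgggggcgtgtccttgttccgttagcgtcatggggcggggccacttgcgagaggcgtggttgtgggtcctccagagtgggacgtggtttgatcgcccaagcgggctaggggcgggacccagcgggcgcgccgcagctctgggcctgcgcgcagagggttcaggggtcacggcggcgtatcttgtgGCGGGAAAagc
Orc3 (chr4:34614893-34615192, minus strand): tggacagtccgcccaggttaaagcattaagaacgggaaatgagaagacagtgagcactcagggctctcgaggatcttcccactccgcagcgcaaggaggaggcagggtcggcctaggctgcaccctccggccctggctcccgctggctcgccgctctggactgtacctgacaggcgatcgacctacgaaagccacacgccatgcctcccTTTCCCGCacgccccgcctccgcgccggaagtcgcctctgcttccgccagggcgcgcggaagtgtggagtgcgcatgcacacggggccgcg
Cdt1 (chr8:122567765-122568064, plus strand): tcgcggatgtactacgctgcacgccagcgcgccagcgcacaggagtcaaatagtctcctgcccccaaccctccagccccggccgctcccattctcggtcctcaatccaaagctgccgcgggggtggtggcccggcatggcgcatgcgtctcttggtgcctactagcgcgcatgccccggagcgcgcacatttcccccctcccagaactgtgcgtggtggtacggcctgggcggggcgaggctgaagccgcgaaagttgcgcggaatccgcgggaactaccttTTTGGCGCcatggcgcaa
Mcm5 (chr8:75109259-75109558, plus strand): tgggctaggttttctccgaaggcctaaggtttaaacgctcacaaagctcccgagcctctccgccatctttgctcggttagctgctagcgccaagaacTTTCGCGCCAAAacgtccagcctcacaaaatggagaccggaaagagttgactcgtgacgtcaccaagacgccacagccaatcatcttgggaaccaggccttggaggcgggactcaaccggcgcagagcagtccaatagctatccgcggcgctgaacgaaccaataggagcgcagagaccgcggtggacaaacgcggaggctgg

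In Mcm5 2 matches on opposite strands overlap and appear as 1 run of capitals, and Mcm3 holds 2 separate matches downstream of the start site. Uhrf1 has 2 annotated windows, and only the downstream one holds a match. Of 12 tested members with a match, 4 lay above all vehicle libraries in every D-serine library. Of 23 tested members with a window and no match, 8 did, beside 16.5% of all tested genes. The medians of the log2 difference were 0.36 and 0.28. Uhrf1 and Mcm3 among the 4, and Asf1b and Chaf1b among the 8, were tested only because of their D-serine libraries. Whether members with and without a match differ was not tested. Orc3, whose window holds TTTCCCGC, was the member that lay below.

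The origin recognition subunits differed little between the groups as a sum. The 6 subunits summed to 37.4 to 39.9 FPKM with D-serine and 37.4 to 39.4 FPKM with vehicle. Orc2, Orc4, Orc5 and Orc6 had overlapping groups and log2 differences from -0.052 to 0.15. Orc3, a core subunit of the complex, was at 6.41, 7.13 and 6.999 FPKM with D-serine and at 7.94, 7.96 and 7.54 FPKM with vehicle. Its groups did not overlap, but the log2 difference of -0.17 ± 0.091 (SE) did not pass (limma adjusted p = 0.26, 95% interval -0.38 to 0.044). Orc1, the ATPase subunit whose protein is made and destroyed with each cycle, was barely detected, at 0.127, 0.0451 and 0.0428 FPKM with D-serine, against 0.0378, 0.0396 and 0.0837 FPKM with vehicle. By the estimated depth and its longest transcript these values stood for about 0.98 to 2.9 fragments, so no difference was detectable at this depth.

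Of the licensing factors that come and go with the cycle, 1 of 3 had every D-serine library above every vehicle library. The same held for 14.5% of all genes with a value above 0. None passed limma, and Cdc6 was under the minimum for testing. Gmnn, which encodes geminin, was at 23.1, 20.4 and 17.8 FPKM with D-serine and at 13.4, 16.5 and 15.1 FPKM with vehicle. The groups did not overlap, and the log2 difference was 0.42 ± 0.13 (SE, limma adjusted p = 0.10). Cdt1, which brings the MCM helicase to origins, was at 3.59, 1.79 and 3.51 FPKM with D-serine and at 1.92, 1.68 and 2.25 FPKM with vehicle. D-serine replicate 2 lay inside the vehicle range, and the difference did not pass (limma adjusted p = 0.26). Cdc6, the loading ATPase, was at 0.384, 0.146 and 0.139 FPKM with D-serine and at 0.147, 0.0513 and 0.190 FPKM with vehicle, roughly 2.0 to 14 fragments, with overlapping groups.

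The MCM2-7 ring consists of 1 copy of each of 6 related subunits, but their messages differed widely in level. In vehicle kidneys Mcm7 averaged 10.3 FPKM and Mcm6 8.43 FPKM, Mcm2 followed at 4.07 FPKM, and Mcm4, Mcm5 and Mcm3 stood at 1.51, 1.41 and 0.961 FPKM. The means of Mcm7 and Mcm6, and those of Mcm4 and Mcm5, lay within their spread. Summed, the 6 were at 41.8, 23.5 and 33.8 FPKM in D-serine replicates 1 to 3 and at 25.2, 29.2 and 25.5 FPKM in vehicle replicates 1 to 3. Replicate 2 of the D-serine group was thus the lowest of the 6 libraries and the groups overlapped. The largest log2 difference was that of Mcm3, at 2.66, 1.32 and 1.75 FPKM with D-serine and at 0.712, 1.12 and 1.05 FPKM with vehicle. Mcm3 was the 1 member of the family whose groups did not overlap (log2 difference 0.55 ± 0.20 SE, limma adjusted p = 0.14). Of all genes with a value above 0, 14.5% were higher without overlap. Mcm3 was tested only because of its D-serine libraries, and whether the subunits differ from each other was not tested.

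Mcm5, a subunit at the gate through which DNA enters the ring, was at 3.62, 1.22 and 2.13 FPKM with D-serine and at 1.39, 1.35 and 1.499 FPKM with vehicle. Its D-serine libraries ran from the lowest to the highest of the 6 values, and the log2 difference of 0.40 (limma adjusted p = 0.33) was 0.13 without replicate 1. Mcm2, the subunit that also binds histones, was at 5.96, 4.36 and 5.12 FPKM with D-serine and at 3.62, 4.77 and 3.82 FPKM with vehicle, with a log2 difference of 0.28 (limma adjusted p = 0.24). Mcm4, Mcm6 and Mcm7 had log2 differences of 0.14, 0.15 and 0.20 with overlapping groups. Mcm8, a relative outside the ring that acts in DNA repair, averaged 1.28 ± 0.841 FPKM with D-serine and 0.706 ± 0.156 FPKM with vehicle (SD, n = 3 each). D-serine replicate 1 alone was at 2.24 FPKM, and the groups overlapped.

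Among the helicase activators, Gins2 and Dbf4 had the widest gaps. Gins2, a subunit of the GINS complex, was at 12.1, 3.05 and 5.93 FPKM with D-serine and at 2.04, 2.41 and 2.83 FPKM with vehicle. The groups did not overlap, and the log2 difference was 1.07 ± 0.38 (SE, limma adjusted p = 0.13), and 0.64 without D-serine replicate 1. Its exons share 2758 bases with exons of Gse1 on the other strand, and the labels do not say whether reads were assigned by strand. Gse1 itself was at 5.68 to 6.75 FPKM with D-serine and 4.58 to 5.29 FPKM with vehicle, so reads of the pair could not be told apart if strand was ignored.

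The other GINS subunits had overlapping groups, and whether they differ from Gins2 was not tested. Gins4 was at 16.7, 11.1 and 15.6 FPKM with D-serine and at 10.5, 12.96 and 12.1 FPKM with vehicle, which overlapped (log2 difference 0.25, limma adjusted p = 0.34). Gins1 averaged 2.80 ± 1.45 and 1.97 ± 0.346 FPKM with D-serine and vehicle, and Gins3 0.473 ± 0.274 and 0.431 ± 0.209 FPKM (SD, n = 3 each), both with overlapping groups. In vehicle kidneys Gins4 was the most abundant of the 4 at 11.9 FPKM and Gins3 the least at 0.431 FPKM, although the complex holds 1 copy of each.

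Dbf4, the activating subunit of the CDC7 kinase, was at 7.32, 3.004 and 2.63 FPKM with D-serine and at 1.61, 1.34 and 2.15 FPKM with vehicle. All D-serine libraries were above all vehicle libraries, and limma put the log2 difference at 0.88 ± 0.31 (SE, limma adjusted p = 0.13), and at 0.51 without D-serine replicate 1. Cdc7, the kinase subunit, was at 0.473, 0.0478 and 0.696 FPKM with D-serine and at 0.0801, 0.210 and 0.266 FPKM with vehicle, which is about 1.3 to 20 fragments. Cdc45, which joins the helicase before unwinding, was at 3.88, 1.63 and 1.23 FPKM with D-serine and at 1.89, 2.14 and 2.33 FPKM with vehicle. Replicate 1 was above and replicates 2 and 3 were below all vehicle libraries, so that the log2 difference of -0.026 (95% interval -0.69 to 0.63) averages libraries on both sides. Mcm10, a helicase activator outside the ring, had a log2 difference of 0.016 with overlapping groups.

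**Figure D2:**
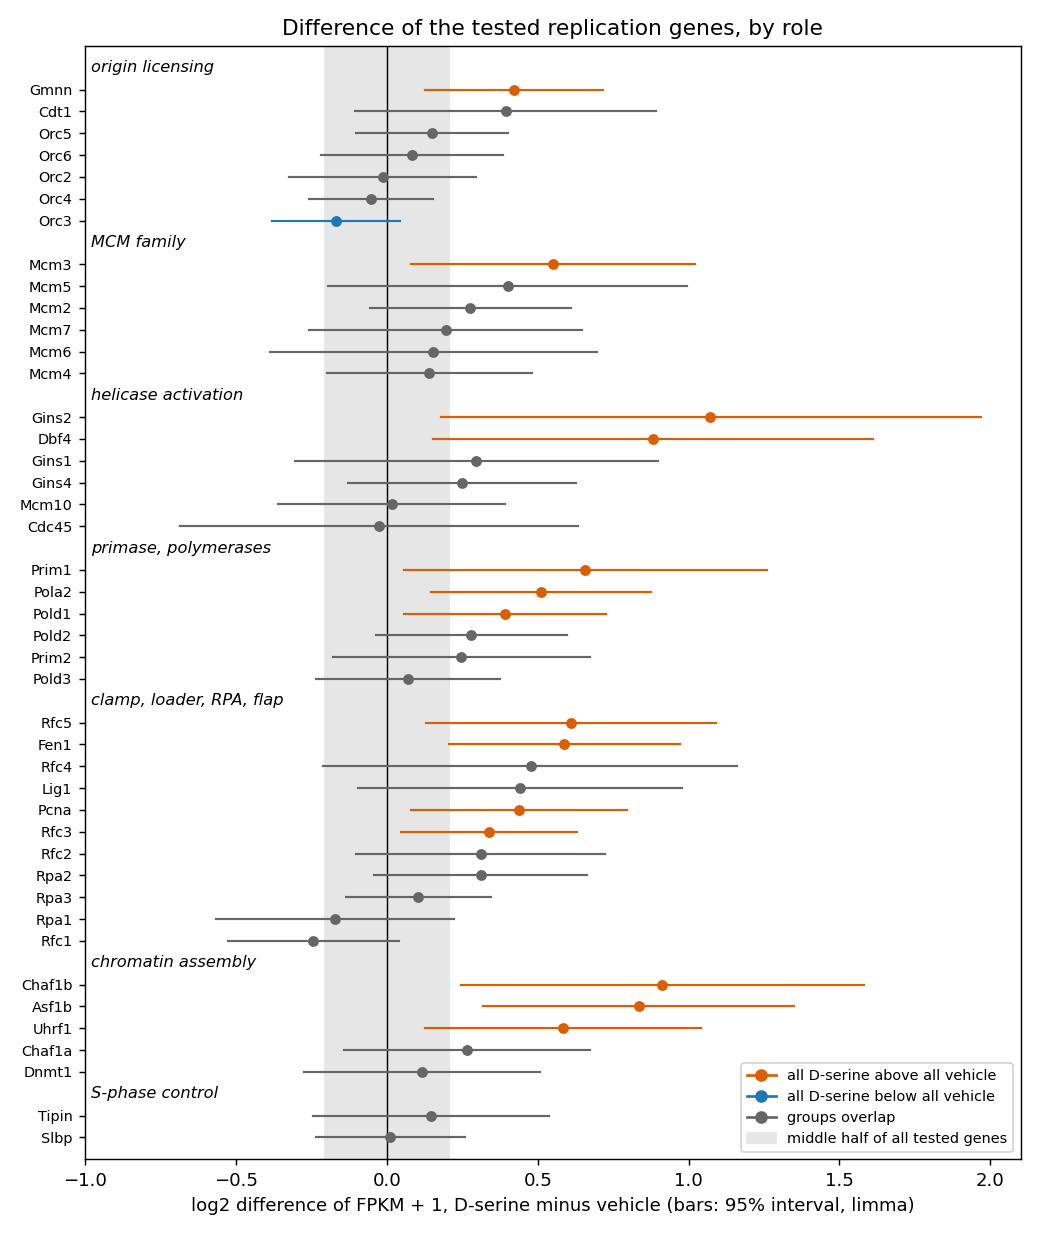
Log2 difference of FPKM + 1, D-serine minus vehicle, with 95% intervals from limma, for the 43 tested members by role; orange marks members whose D-serine libraries all lay above the vehicle libraries, blue all below, grey overlapping groups, and the band runs between the quartiles of all tested genes. Gins2, Chaf1b, Dbf4 and Asf1b lie farthest right, and Rfc1, Rpa1 and Orc3 farthest left. Like Uhrf1 and Mcm3, Chaf1b and Asf1b averaged under 1 FPKM with vehicle and are drawn only because of their D-serine libraries.

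Primase and polymerase genes all had a higher mean with D-serine, 9 of 9. In 4 of the 9 every D-serine library lay above every vehicle library, as it did in 14.5% of all genes with a value above 0. Prim1, the catalytic subunit of primase, was at 9.93, 4.78 and 4.80 FPKM with D-serine and at 3.68, 2.93 and 4.07 FPKM with vehicle (log2 difference 0.66 ± 0.26 SE, limma adjusted p = 0.15, and 0.35 without D-serine replicate 1). Pola2, the accessory subunit of polymerase alpha, was at 2.42, 3.44 and 3.21 FPKM with D-serine and at 1.77, 1.51 and 2.18 FPKM with vehicle. Here D-serine replicate 1 was the lowest of its group, and the log2 difference of 0.51 ± 0.16 (SE, limma adjusted p = 0.10) was 0.62 without that library.

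Pold1, the catalytic subunit of polymerase delta, was at 3.54, 2.72 and 2.39 FPKM with D-serine and at 1.84, 1.93 and 2.04 FPKM with vehicle, without overlap (log2 difference 0.39 ± 0.14 SE, limma adjusted p = 0.14). Its partners Pold2 and Pold3, and the second primase subunit Prim2, had log2 differences of 0.28, 0.069 and 0.25 with overlapping groups. The 3 other members of this role were under the minimum for testing. Pola1, the catalytic subunit of polymerase alpha, was at 1.25, 0.443 and 0.654 FPKM with D-serine and at 0.721, 0.605 and 0.548 FPKM with vehicle. Pole, that of polymerase epsilon, was at 1.15, 0.476 and 0.347 FPKM with D-serine and at 0.168, 0.289 and 0.356 FPKM with vehicle. Pole2, its second subunit, averaged 1.01 ± 0.138 FPKM with D-serine and 0.640 ± 0.281 FPKM with vehicle (SD, n = 3 each) and was the 1 of these 3 whose groups did not overlap, with 4.2 to 15 fragments behind each value.

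Pcna, the sliding clamp, was the most abundant member, at 64.1, 43.0 and 46.3 FPKM with D-serine and at 35.5, 36.8 and 38.4 FPKM with vehicle. Its groups did not overlap, at 1.39 times the vehicle mean (log2 difference 0.44 ± 0.15 SE, limma adjusted p = 0.13, and 0.27 without D-serine replicate 1). The annotation holds the pseudogenes Pcna-ps1 and Pcna-ps2, which can take or lend reads, so its level is less certain. Fen1, the nuclease that trims Okazaki fragments, was at 6.06, 4.07 and 3.87 FPKM with D-serine and at 2.57, 2.9999 and 2.60 FPKM with vehicle (log2 difference 0.59 ± 0.16 SE, limma adjusted p = 0.091). Most of its transcript, 1909 bases, lies opposite an annotated antisense gene, Gm10143. A further 130 bases lie opposite Tmem258, at 206 to 221 FPKM with D-serine and 153 to 185 FPKM with vehicle, so the level of Fen1 is uncertain if strand was ignored. Lig1, the ligase that seals those fragments, was at 4.03, 2.32 and 1.66 FPKM with D-serine and at 1.55, 1.61 and 1.66 FPKM with vehicle, so that replicate 3 met the vehicle level.

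The 5 clamp loader subunits split. Rfc5 was at 14.7, 8.48 and 8.28 FPKM with D-serine and at 6.68, 5.83 and 6.40 FPKM with vehicle, without overlap (log2 difference 0.61 ± 0.20 SE, limma adjusted p = 0.12, and 0.36 without D-serine replicate 1). Its exons share 499 bases with Wsb2 on the other strand. Rfc3 had no overlap either, at 4.94 ± 0.735 FPKM with D-serine and 3.68 ± 0.241 FPKM with vehicle (SD, n = 3 each). Rfc2 and Rfc4 were higher on average with overlapping groups, and Rfc1, the large subunit, was lower on average at 5.16 ± 0.632 FPKM with D-serine and 6.29 ± 0.655 FPKM with vehicle (log2 difference -0.24, limma adjusted p = 0.23). Rfc2 was far above its partners, at 32.9 FPKM in vehicle kidneys against 3.68 to 6.30 FPKM for the other 4.

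The single-strand binding protein RPA showed no gap between groups in any of its 3 subunits. Rpa1 had a log2 difference of -0.17, Rpa2 of 0.31 and Rpa3 of 0.10, with limma adjusted p from 0.22 to 0.53. Without D-serine replicate 1, Rpa1, Rfc1 and Cdc45 each lay below all vehicle libraries, with log2 differences of -0.34, -0.32 and -0.36 (limma adjusted p = 0.20, 0.20 and 0.19). The share of all tested genes lying below with that library left out was not counted, and was 19.4% with all libraries. None of these members passed limma, and their position below gives no result about them.

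The chromatin assembly and maintenance methylation genes number 5, and 3 of them, Asf1b, Chaf1b and Uhrf1, were higher without overlap. Of all tested genes 16.5% were so. The same 3 averaged under 1 FPKM with vehicle and were tested because of their D-serine libraries, so this count and the median of the role are fixed in part by the minimum level. Asf1b (chromosome 8, 83955507 to 83970197, mm10), a histone chaperone of dividing cells, was at 2.73, 1.18 and 2.07 FPKM with D-serine and at 0.533, 0.558 and 0.844 FPKM with vehicle. That is 3.09 times the vehicle mean, and the log2 difference was 0.83 ± 0.22 (SE, limma adjusted p = 0.085, 95% interval 0.32 to 1.35). Chaf1b (chromosome 16, 93883901 to 93906115), the middle subunit of chromatin assembly factor 1, was at 4.17, 2.08 and 1.34 FPKM with D-serine and at 0.932, 0.586 and 0.826 FPKM with vehicle. Its log2 difference was 0.91 ± 0.28 (SE, limma adjusted p = 0.11), and 0.60 without D-serine replicate 1. About 14 to 23 fragments stood behind the Chaf1b values with vehicle and 8.2 to 12 behind those of Asf1b, so both ratios rest on few reads.

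Chaf1a, the large subunit of the same factor, was at 2.79, 1.51 and 2.09 FPKM with D-serine and at 1.54, 1.47 and 1.70 FPKM with vehicle, with overlap (log2 difference 0.27, limma adjusted p = 0.34). Its exons share 4648 bases with Ubxn6, a gene on the other strand at 35.1 to 41.0 FPKM with D-serine and 41.8 to 44.9 FPKM with vehicle, so its level is uncertain if strand was ignored. Uhrf1, which reads hemimethylated DNA behind the fork, was at 2.82, 1.70 and 1.53 FPKM with D-serine and at 1.23, 0.897 and 0.839 FPKM with vehicle (log2 difference 0.58 ± 0.19 SE, limma adjusted p = 0.12). Dnmt1, the methyltransferase it recruits, averaged 4.10 ± 0.980 FPKM with D-serine and 3.66 ± 0.482 FPKM with vehicle (SD, n = 3 each), a difference within the spread.

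**Figure D3:**
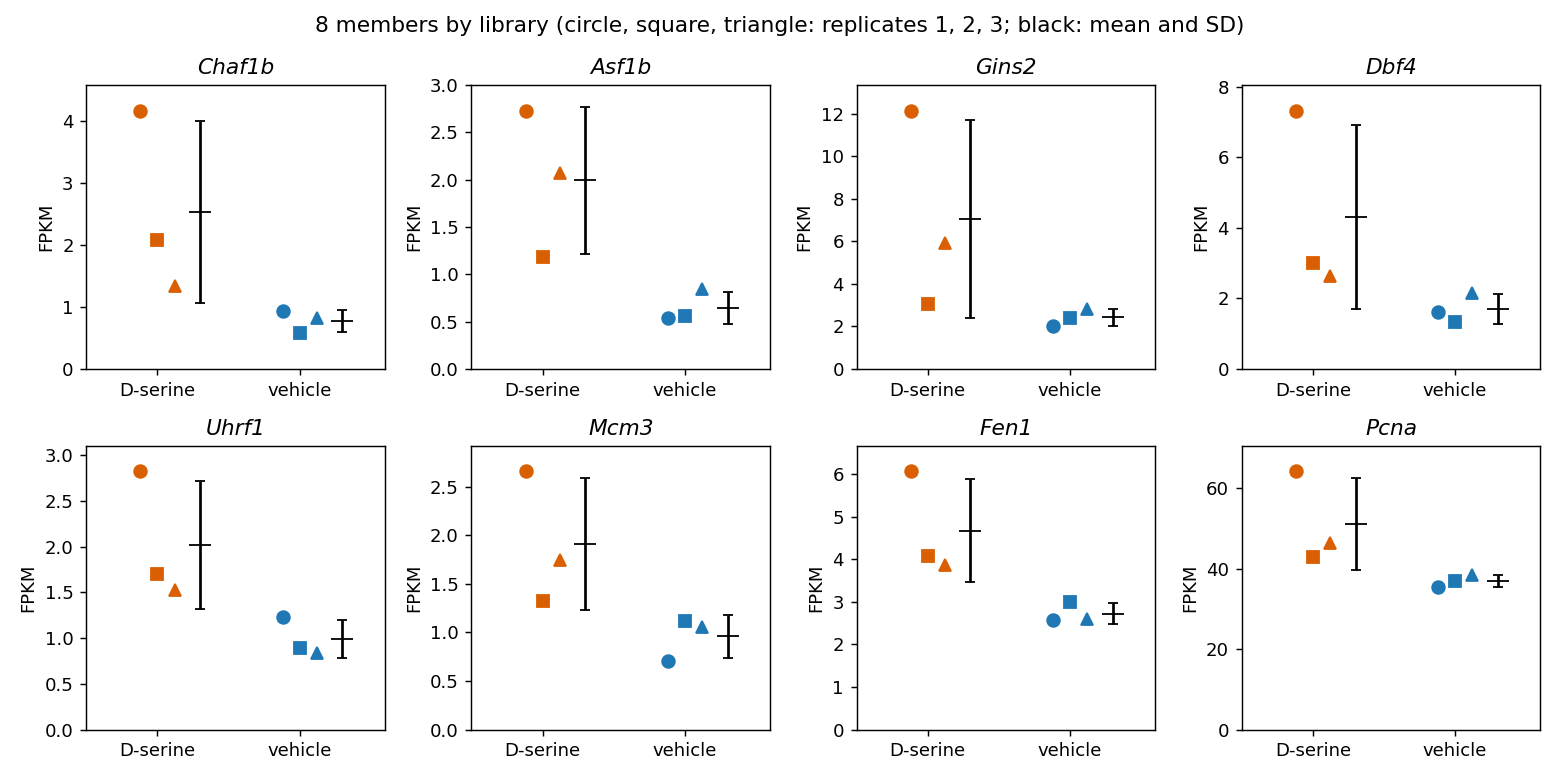
FPKM of 8 members in each library, D-serine left of vehicle, with circles, squares and triangles for replicates 1, 2 and 3 and the mean ± SD in black. In each of the 8 the D-serine libraries lie above the vehicle libraries, and D-serine replicate 1 is the highest. All 8 were taken from members without overlap, so this pattern comes with the choice. Pola2 and Rfc3, also without overlap but not drawn, were highest in D-serine replicates 2 and 3. Chaf1b, Asf1b, Uhrf1 and Mcm3 averaged under 1 FPKM with vehicle and were tested only because of their D-serine libraries.

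The S-phase control and fork protection genes were mixed. Dtl, part of the ubiquitin ligase that destroys CDT1 in S phase, was under the minimum for testing but had no overlap, at 0.946, 0.789 and 0.478 FPKM with D-serine and 0.264, 0.332 and 0.146 FPKM with vehicle. This is 2.98 times the vehicle mean on about 5.3 to 34 fragments per library, and with no minimum the limma adjusted p was 0.13. Slbp, which binds the stem-loop of histone messages, was at 13.5, 13.4 and 11.2 FPKM with D-serine and at 12.7, 13.1 and 11.8 FPKM with vehicle. Its log2 difference of 0.012 had a 95% interval from -0.24 to 0.26. Tipin, of the fork protection complex, was at 7.33, 10.1 and 6.46 FPKM with D-serine and at 6.12, 6.97 and 7.96 FPKM with vehicle, and its partner Timeless averaged 0.691 ± 0.161 and 0.585 ± 0.110 FPKM with D-serine and vehicle (SD, n = 3 each). Both pairs of groups overlapped.

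**Figure D4:**
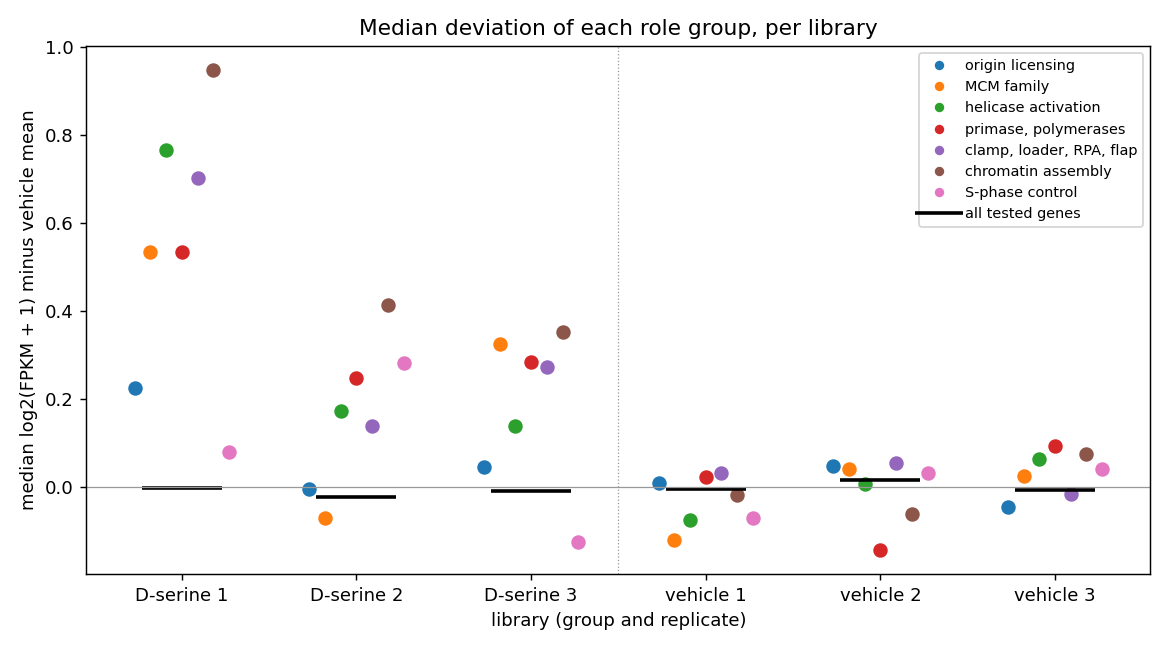
Median over tested members of log2(FPKM + 1) minus the gene's vehicle mean, for each role group in each library, with black bars for all tested genes. D-serine replicate 1 has the highest point in every role except S-phase control. Of the 5 chromatin assembly members 3 were tested only because of their D-serine libraries.

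By library, the median deviation of MCM family members from their vehicle mean was 0.53, -0.071 and 0.33 on the log2 scale in D-serine replicates 1 to 3, so that replicate 2 was below the vehicle mean. For origin recognition and licensing it was 0.22, -0.0043 and 0.046. The same median over all tested genes was between -0.023 and -0.0022 in these 3 libraries.

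Of 32 other genes of the replication pathway, not among the members, 21 had a higher and 11 a lower mean with D-serine. Every D-serine library lay above every vehicle library in 14 of the 32 and below in 4, against 14.5% and 13.9% of all genes with a value above 0. Of 22 tested, 11 had a positive and 11 a negative log2 difference, with a median of 0.027. None passed limma over all genes (lowest adjusted p = 0.071), and at an unadjusted p of 0.05 there were 5 higher and 3 lower. Mtbp, a partner of the firing factor TICRR, was at 2.90, 2.85 and 3.28 FPKM with D-serine and at 1.86, 1.73 and 1.78 FPKM with vehicle. Rnaseh2c and Rnaseh2a, subunits of the enzyme that removes ribonucleotides from DNA, averaged 104 ± 13.9 and 9.71 ± 1.73 FPKM with D-serine and 66.8 ± 10.6 and 6.57 ± 0.685 FPKM with vehicle (SD, n = 3 each). Pole4, a small subunit of polymerase epsilon, was lower in each D-serine library, at 25.9, 20.5 and 22.9 FPKM, than in the vehicle libraries, at 30.3, 35.8 and 27.2 FPKM (limma adjusted p = 0.11). Of 7 tested G1/S inducers 7 had a log2 difference above 0, against 48.9% of all tested genes, and 0 passed. Their median was 0.16, and Ccnd1, Ccnd3 and E2f3 were close to 0 at 0.035, 0.0089 and 0.0088. E2f2 averaged 0.828 FPKM with vehicle and was tested only because of its D-serine libraries. The largest log2 difference of the list, 0.82, was that of E2f1, an E2F activator. It was at 5.63, 2.90 and 2.46 FPKM with D-serine and at 1.098, 1.43 and 2.22 FPKM with vehicle (limma adjusted p = 0.12).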

How the data were processed

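Per the labels' protocols, TRIzol was used to isolate kidney RNA and libraries were stranded (TruSeq mRNA). The submitters' processing notes name TopHat2 2.0.13, Bowtie2 2.2.3, SAMtools 0.1.19, Cufflinks 2.2.1 and, as genome, mm10. FPKM, 1 table for each library, are what the authors deposited, with the same 24346 gene symbols in each. No source used here gives the annotation, strand setting or filters. FPKM are not counts, so no count test was run.

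Depth was estimated from the lowest values: the relative depth was the commonest ratio between libraries of values under 0.15 FPKM, and totals came from single-transcript genes. Fragments behind a value are rough, from the longest transcript in GENCODE M21. Limma 3.58.1 in R 4.3.3 was run on log2(FPKM + 1) (lmFit, eBayes with a mean-variance trend, two-sided, Benjamini-Hochberg over 11737 genes averaging 1 FPKM or more, threshold 0.05), and the script was tested on simulated data. Members, lists and tests were chosen with earlier results of these data known. Values of every library are given for the 3 tested members with the smallest p in each of 7 roles and for a fixed set of central genes; other members are named to account for all 53, and those of them with every library printed were picked after their values were seen. Of 32 other replication genes the 4 with the smallest p are named. Promoters shown are those of such tested members that hold an E2F-type match, a restriction made after the matches were seen. The alternatives were other pseudocounts, minimums, scalings and weights, the replicate block, leaving out small RNA genes or each library, and removing a length and GC trend (loess, span 0.5, for 96.4% of tested genes).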

Additional observations from a re-analysis of the deposited data

How the results depend on the processing

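The count of members called was 0 of those tested under each of the 18 alternatives, and so was that of the other replication genes. The lowest adjusted p of a member ran from 0.050 with weighted libraries, where D-serine replicate 2 had the smallest weight (0.394), to 0.25 without vehicle replicate 1. At an unadjusted p of 0.05 the count of higher members was 14 with all libraries, beside 13.1% of all tested genes. It was 21 with weights, 4 of 22 with a minimum of 5 FPKM and 24 without D-serine replicate 2. It was 8 without vehicle replicate 1 or 2, and 10 (with 2 lower) without D-serine replicate 1. For these alternatives the share of all genes at that threshold was not counted. The counts therefore give no result about the members. Over all genes the count called at an adjusted p of 0.05 ran from 2 to 437 around 9. It was 269 with weights and 10 without D-serine replicate 2. The median of tested members was 0.28 with all libraries, 0.14 at the lowest (leaving out D-serine replicate 1) and 0.42 at the highest (leaving out replicate 2), and was 0.15 with the minimum of 5 FPKM. Members above all vehicle libraries numbered 14 to 29 when 1 library was left out. Across these settings 19.1 to 24.1% of all tested genes did so, against 16.5% with all libraries. The highest count came without D-serine replicate 2, where the share of all tested genes was 20.0%. With the minimum of 5 FPKM 4 of 22 tested members did so, beside 16.1% of all genes tested there. Members below all vehicle libraries numbered 1 to 4 when 1 library was left out, the highest without D-serine replicate 1. The count was 3 without D-serine replicate 2 or vehicle replicate 3, and 0 once the trend with length and GC was taken out. In these settings the share of all tested genes lying below was not counted, and it was 19.4% with all libraries. The counts below therefore give no result about the members. Leaving out 1 library turned the sign of 8 of the 43 tested members, Tipin (-0.018 to 0.27), Slbp (-0.032 to 0.094), Orc2, Mcm7, Mcm10, Cdc45, Pold3 and Dnmt1. Mcm7 and Dnmt1 turned to -0.0089 and -0.010 without D-serine replicate 1, Mcm10 to -0.14 without D-serine replicate 2, Pold3 to -0.0066 without vehicle replicate 2, and Orc2 and Cdc45 to 0.094 and 0.20 without D-serine replicate 3. The replicate numbers did not pair the libraries (correlations of same-numbered deviations -0.070, 0.0031 and 0.067), and with the replicate block 0 members were called, with a lowest adjusted p of 0.15 and 2 genes called in all. Members under 1 FPKM rest on few fragments, and no difference below their counting error can be seen.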

Other observations

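The genes of the same pathway that were too low for testing are named here after their values were seen. Of the 10 untested genes among the 32 other replication genes, 7 had every D-serine library above every vehicle library (Clspn, Wdhd1, Ticrr, Atad5, Chtf18, Hells and Tonsl), against 14.5% of all genes with a value above 0. Of the 10 untested members 2 did, Dtl and Pole2. Clspn, the adaptor that passes the stalled-fork signal to CHK1, was at 0.323, 0.345 and 0.377 FPKM with D-serine and at 0.133, 0.0697 and 0.147 FPKM with vehicle. Its highest value was not in D-serine replicate 1, unlike 41 of the 53 members. Chtf18, of an alternative clamp loader, was at 1.72, 1.49 and 0.704 FPKM with D-serine and at 0.219, 0.345 and 0.202 FPKM with vehicle. Tonsl, which binds new histones behind the fork, was at 1.097, 1.42 and 0.930 FPKM with D-serine and at 0.635, 0.472 and 0.646 FPKM with vehicle. With no minimum their limma adjusted p was 0.11, 0.11 and 0.13, so none passed.

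Pole3 and Pole4, which form a histone-fold pair in polymerase epsilon, stood at 61.2 ± 5.58 and 23.1 ± 2.71 FPKM with D-serine and at 46.6 ± 8.47 and 31.1 ± 4.39 FPKM with vehicle (SD, n = 3 each). Pole3 was higher and Pole4 lower in 3 of 3 D-serine libraries than in any vehicle library, while neither passed (limma adjusted p = 0.15 and 0.11). Whether the 2 differences themselves differ was not tested.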
